A study of Drosophila melanogaster with 16 samples.

Results

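Cytosolic ribosomal proteins and translation factors, the machinery by which cells make protein, were followed in heads of female Drosophila fed the proconvulsant pentylenetetrazole (PTZ). Members were the named genes on the array whose symbols start with RpL, RpS, eIF or eEF, without the mitochondrial ribosomal proteins, the relatives ending in -like and the subunits of eIF3. This gave 40 of the 6793 named genes, 20 ribosomal proteins and 20 translation factors, of which 4 were elongation factors and 16 were initiation factors. Because 12430 of the 27648 array rows carry no gene name, the 40 genes are a part of these families and not a full roster.

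Every array set RNA from heads of PTZ flies against RNA from heads of control flies kept on normal food (NF) for the same time. The flies were Oregon-R virgin females, 3–4 days old at the start, held 30 to a vial, and PTZ was mixed into the food at 8 mg/ml. There were 4 time points of 4 arrays each. Treated flies were on PTZ up to sampling at the earlier 3 of them (12 hrs, then the 2nd and 7th day), whereas on the 14th day 7 days of PTZ had been followed by 7 days of NF. At each time point PTZ RNA was labelled with Cy5 in replicates 1 and 2 and with Cy3 in the dye-swapped replicates 3 and 4. Each replicate pooled heads from its own vials, and the model is limited to 1 wild-type strain, 1 sex and whole heads. The title of 7th day replicate 4 gives the 7th day while its treatment text describes withdrawal of the drug. It was kept at the 7th day by its title, and family counts and medians of that day are also given without it. Means and tests of single genes, the lists and the time differences include it unless stated.

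A ribosome has a small subunit that reads the mRNA and a large subunit that joins amino acids. Initiation factors of the eIF4F group bind the mRNA cap and unwind the leader, the eIF2 group brings the initiator tRNA, and elongation factors then deliver each further tRNA and move the ribosome along. Translation is regulated in neurons during long-lasting changes of synapses, and genes for ribosomal proteins are often expressed together. The question put to these genes was whether their transcripts differ between PTZ and NF heads, at which time, and whether a difference remains once the drug is withdrawn.

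All values below are log2 ratios of PTZ over NF, after each array was centred on the median of its measured features (named genes and unnamed spot pairs), so that a negative value means lower in PTZ than that array's middle feature. Between 4282 and 10402 of 13059 features had a value on an array. Replicate spots of the same member differed by a median of 0.066 to 0.16 within an array. Arrays of opposite dye orientation at the same time point correlated over all features between -0.44 and -0.32 at 12 hrs, after all were turned to PTZ over NF. For the 2nd day the range was -0.39 to -0.08, for the 7th day -0.08 to 0.34, and for the 14th day -0.37 to 0.35. Arrays of the same orientation correlated between 0.37 and 0.58 at 12 hrs, between 0.32 and 0.43 on the 2nd day, at -0.08 and 0.43 on the 7th day and between -0.06 and -0.04 on the 14th day. The labelled dye orientations were kept throughout, and the sign of every value given as PTZ over NF rests on them, also at 12 hrs and on the 2nd day where all opposite arrays correlated below 0. Of the markers of head tissues, the neuronal nSyb, the photoreceptor genes trp, trpl and Arr1, the glial moody, the fat body genes fit and Yp3 and the flight muscle actin Act88F had values on 11 to 15 arrays. The germline markers osk and bam had a value on 1 array each and otu on none, while elav, brp, ninaE, repo, Mhc and vas were not among the named rows. In such bulk RNA, fewer cells of a type and less RNA per cell cannot be told apart.

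**Figure D1:**
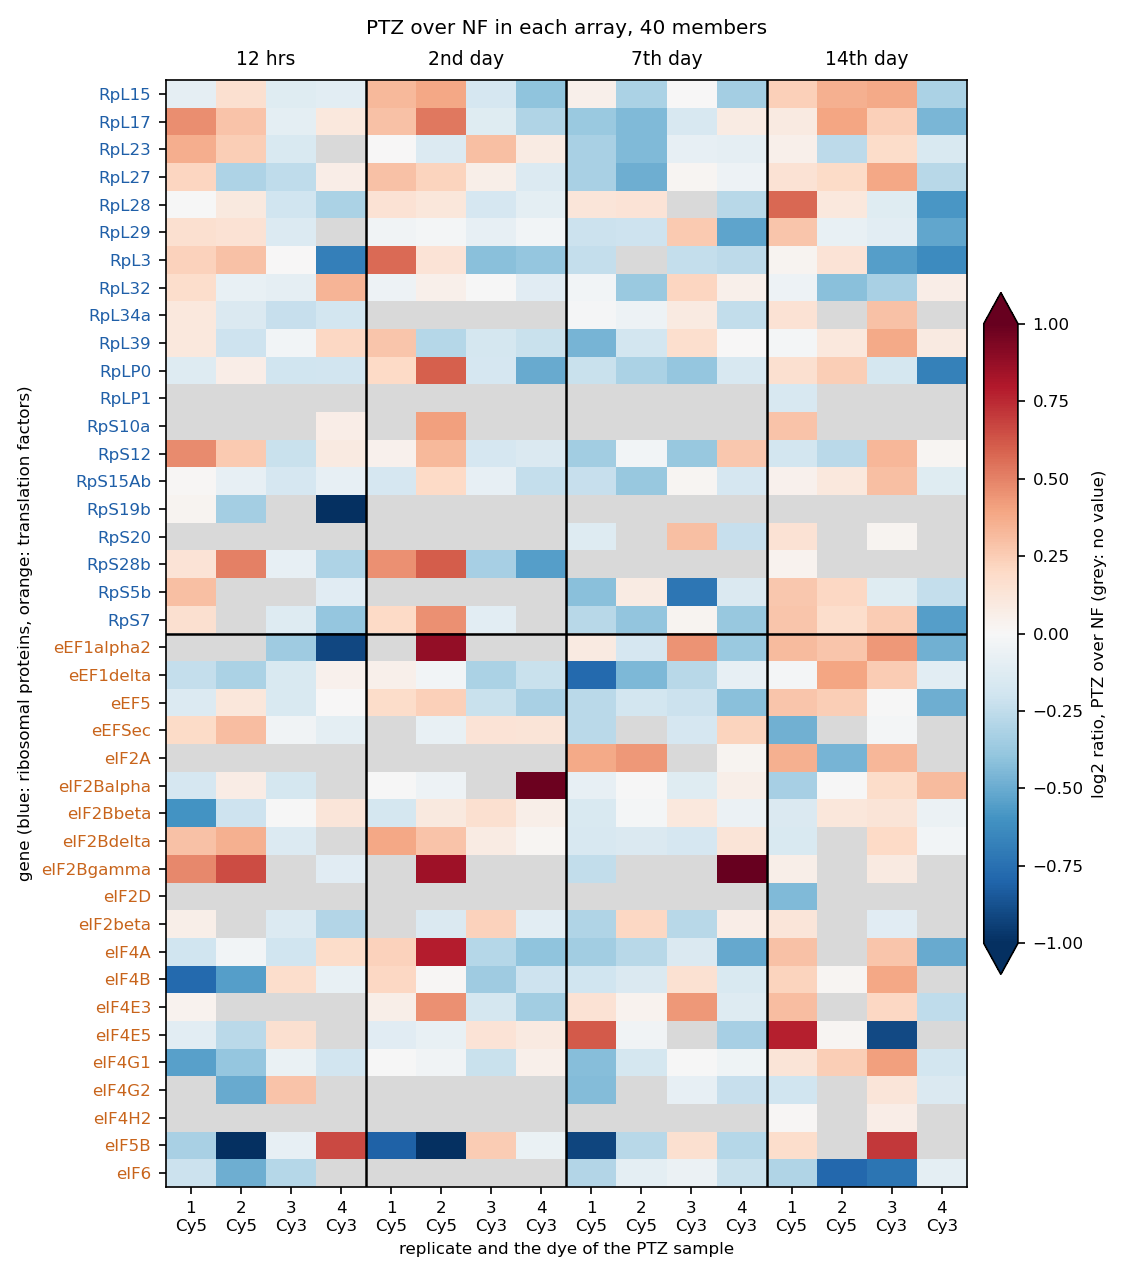
PTZ over NF for the 40 members (rows, blue names ribosomal proteins and orange names translation factors) on the 16 arrays (columns, by time point, replicate and the dye of the PTZ sample), as log2 ratio in colour from -1 to 1, grey where an array gave no value. On the 2nd day most ribosomal proteins are red where PTZ was in Cy5 and blue where it was in Cy3, and on the 7th day blue prevails on 3 of the 4 arrays, replicate 3 being mixed.

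A member was tested at a time point where at least 3 of its 4 arrays gave a value. This held for 22 members at every time point, and 12 members had a value on all 16 arrays. RpLP1, RpS10a, eIF2D and eIF4H2 were not measured well enough for any test. RpS19b was tested at 12 hrs alone, eIF2Bgamma at 12 hrs alone and RpS20 on the 7th day alone. By limma, with p-values adjusted over all features and a threshold of 0.19, 0 of 30 members were called at 12 hrs, where 0% of the 5760 features tested were called. On the 2nd day 0 of 27 members were called against 0.222% of 5415 features, on the 7th day 0 of 33 members against 0% of 7289, and on the 14th day 0 of 28 members against 0% of 6464. SAM, the method the study used, was run here on the centred values and also called 0 members at each time point. The false discovery rate was the one the study used at that time point, and 0.19 for the 14th day. Among the 5760 features tested for 12 hrs, SAM called 1, and among the 5415 of the 2nd day it called 19. The SAM counts over all features for the 7th and 14th day are not given here. The paper's own SAM lists gave a different result. It reports the ribosomal pathway as enriched in genes downregulated in females, taking its time points up to the 7th day together. The reason for this difference was not tested. At an unadjusted p under 0.05, 2 members were lower in PTZ at 12 hrs, 0 on the 2nd day, 4 on the 7th day and 1 on the 14th day, beside 1.41%, 3.08%, 3.43% and 1.64% of all features in that order. The 4 of the 7th day became 0 without replicate 1, beside 1.2% of all features, and 1 without replicate 2, beside 1.52%. Without replicate 3 they became 3, beside 4.25%, and without replicate 4 also 3, beside 4.65%. At the same limit 0 members were higher at any time point, beside 0.972%, 1.75%, 4.94% and 0.495% of all features. What follows is therefore a description of levels and of their spread, and no single gene is reported as changed.

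The 7th day was the time point at which the ribosomal proteins lay low together. All 16 tested ribosomal proteins had a mean below 0, beside 49.9% of all features, and their median was -0.18, which is a fold of 0.883. Of 17 translation factors 14 were below 0, with a median of -0.09. Over the whole family 30 of 33 members were below 0, the median was -0.15, and the middle 50% of members lay between -0.25 and -0.04. The median of all 7289 features was 0.00. The highest ribosomal protein, RpL28, stood at -0.01, and without replicate 4 it stood at 0.13. Without replicate 4, 13 of 16 ribosomal proteins and 26 of 33 members had a mean below 0, and the family median was -0.16.

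Array by array, the median of the ribosomal proteins on the 7th day was -0.23 in replicate 1, -0.32 in replicate 2, 0.02 in replicate 3 and -0.16 in replicate 4. Translation factors had medians of -0.27, -0.14, -0.08 and -0.13 in that order. Thus 3 of 4 arrays placed the ribosomal proteins below the middle of the array, and replicate 3 did not. In 23 of 33 members the mean was below 0 in both dye orientations, beside 27.2% of all features, and 9 of 33 were below 0 on every array that measured them, beside 11.1% of all features. Only eIF2A was above 0 on every array, beside 10.2% of all features, and 1 of 16 ribosomal proteins was above 0 in the Cy5 mean and below 0 in the Cy3 mean, beside 21.4%. With the values as deposited, before centring, 11 of 16 ribosomal proteins and 19 of 33 members were below 0 and the family median was -0.04, while the median of all features then stood at 0.09.

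**Figure D2:**
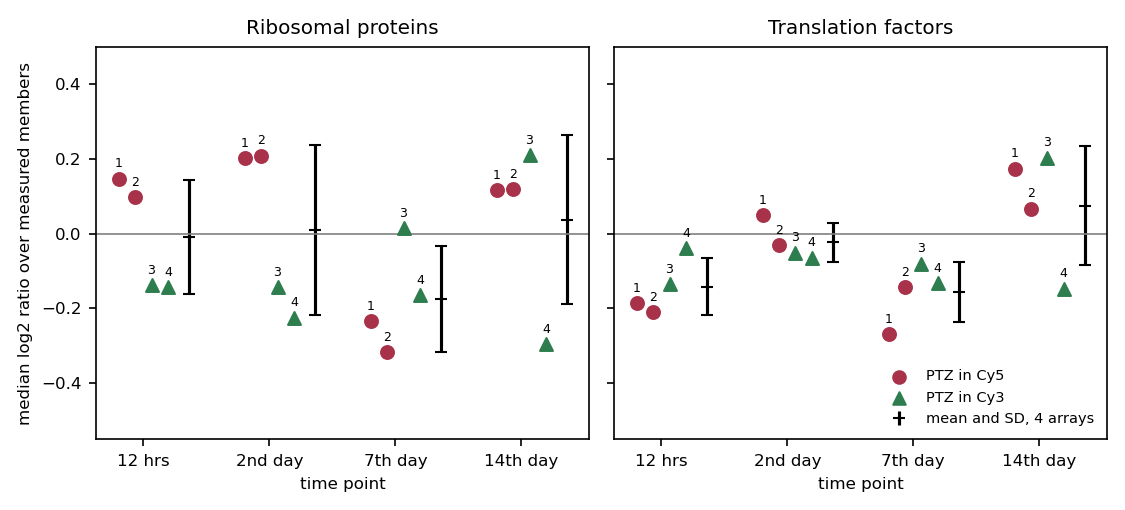
Median log2 ratio, PTZ over NF, of the ribosomal proteins (left) and translation factors (right) measured on each array, by time point. Circles are arrays with PTZ in Cy5, triangles arrays with PTZ in Cy3, digits the replicate, and bars the mean and SD over 4 arrays. Ribosomal proteins are above 0 in circles and below 0 in triangles at 12 hrs and on the 2nd day, and 3 of 4 arrays are below 0 on the 7th day.

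RpLP0, the protein at the base of the large subunit stalk that receives the translational GTPases, was the ribosomal protein with the smallest p on the 7th day. Its values were -0.22, -0.32, -0.38 and -0.16 in replicates 1 to 4, in that order. All 4 arrays were below 0, and the mean was -0.27 in either orientation. Its overall mean was -0.27 (limma SE 0.118, SD 0.098, n = 4). The unadjusted limma p was 0.0497 and the limma adjusted p was 0.596. The other stalk proteins cannot be set beside it, since RpLP1 had a value on 1 array in the series and RpLP2 was not among the named genes.

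RpL3, a core protein of the large subunit, was the most even of the members on the 7th day. It measured -0.24 in replicate 1, -0.23 in replicate 3 and -0.26 in replicate 4, with no value in replicate 2. Its mean was -0.25 (SD 0.0135, n = 3) and its limma adjusted p = 0.632. RpL23, also of the large subunit, was below 0 on all 4 arrays, at -0.32, -0.45, -0.08 and -0.09, where replicates 1 and 2 lay lower than replicates 3 and 4. RpL17, RpL27 and RpS15Ab were below 0 on 3 of 4 arrays with means of -0.22, -0.21 and -0.19, in that order.

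In the small subunit, RpS7 measured -0.28, -0.39, 0.03 and -0.38 on the 7th day. Replicate 3 was the only array above 0, the mean was -0.25, and the limma adjusted p = 0.598. RpS5b, a paralogue of RpS5a used mainly in the ovary, had the lowest mean of the ribosomal proteins at -0.30 but the widest spread among them, with values of -0.42, 0.09, -0.72 and -0.14. RpS12 ran from -0.38 in replicate 3 to 0.27 in replicate 4, around a mean of -0.12. RpL32, long used in flies as a reference transcript under the name rp49, was near 0 in the mean at -0.03, between -0.37 and 0.22. It is represented by 10 spot pairs, and the 2 of them with values on all 4 arrays gave means of -0.19 and 0.00. The pairs with values on 3 arrays gave means of 0.19 and 0.13, so the pairs differed in sign.

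Among elongation factors, eEF1delta was the lowest member of the family on the 7th day. This gene encodes an exchange subunit of eEF1, which recharges the tRNA-delivering eEF1alpha with GTP. It measured -0.78, -0.45, -0.28 and -0.08 in replicates 1 to 4, so that all 4 arrays were below 0 and the Cy5 arrays lay below the Cy3 arrays. The mean was -0.40 (limma SE 0.145, n = 4), a fold of 0.759. The unadjusted limma p was 0.0250 and the limma adjusted p was 0.596. eEF5, known in mammals as eIF5A, eases peptide bond formation at difficult residues and measured -0.27, -0.18, -0.22 and -0.41. It too was below 0 on all 4 arrays, with a mean of -0.27 (limma SE 0.118, n = 4) and a limma adjusted p = 0.596. eEF1alpha2, in contrast, had a mean of 0.00, with replicate 3 at 0.45 and replicate 4 at -0.37. Its 4 values surrounded 0, and its cDNA spots may also bind transcripts of the closely related eEF1alpha1.

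The initiation factors of the cap-binding group differed among themselves on the 7th day. eIF4A, the RNA helicase of that group, was at -0.35, -0.28, -0.14 and -0.51. All 4 arrays were below 0 and the orientations had means of -0.32 and -0.33, Cy5 before Cy3. The overall mean was -0.32 (limma SE 0.123, n = 4), a fold of 0.80. The unadjusted limma p was 0.0304 and the limma adjusted p was 0.596. eIF4G1, the scaffold that joins cap and helicase, was below 0 on 4 of 4 arrays, from -0.43 to a value just under 0, with a mean of -0.16. Its 2 spot pairs differed, with means of -0.02 and -0.31. eIF4G2, a relative known from the male germline of flies, was at -0.43, -0.08 and -0.23 on the 3 arrays that measured it. eIF4B, which stimulates the helicase, had a mean of -0.09 with replicate 3 at 0.15 and the other arrays between -0.20 and -0.15. The cap-binding relatives eIF4E3 and eIF4E5 had means of 0.12 and 0.08, above 0 on 3 of 4 and 1 of 3 arrays.

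Of the factors that handle the initiator tRNA, the tested eIF2 and eIF2B subunits were close to 0 on the 7th day. eIF5B and eIF2A were not. eIF2beta, a subunit of the tRNA carrier eIF2, had a 7th day mean of -0.08, with values from -0.30 to 0.21. The tested subunits of its exchange factor eIF2B were eIF2Balpha at -0.04, eIF2Bbeta at -0.03 and eIF2Bdelta at -0.09. Each was below 0 on 3 of 4 arrays. eIF2Bgamma, on 2 arrays and not tested, was at -0.25 in replicate 1 and 1.28 in replicate 4. eIF5B, the GTPase that joins the subunits, measured -0.92, -0.28, 0.16 and -0.29, with a mean of -0.33 and replicate 1 far the lowest. eIF2A, an initiator tRNA binder outside the main route, was the highest member at 0.28, with values of 0.38, 0.44 and 0.03 on 3 arrays.

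**Figure D3:**
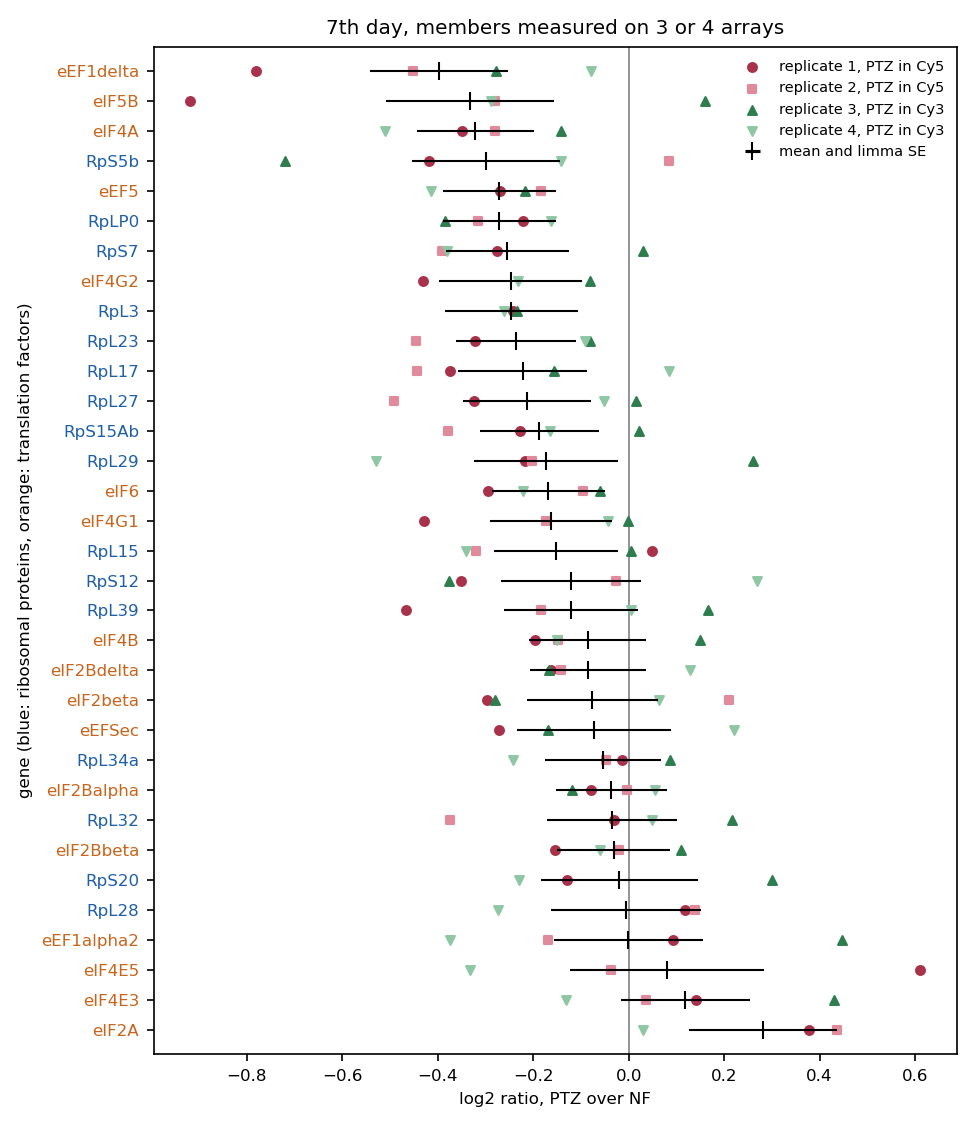
The 33 members tested on the 7th day (vertical axis, lowest mean at the top), with each array's log2 ratio, PTZ over NF (horizontal axis), as a symbol by replicate and the mean with its limma SE as a black cross. All blue names, the ribosomal proteins, have means below 0, from -0.30 for RpS5b to -0.01 for RpL28, and the SE lies between 0.116 and 0.203.

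Several other transcripts of the head were low on the same arrays. On the 7th day the photoreceptor gene Arr1 had a mean of -0.41, the flight muscle gene Act88F of -0.39 and the yolk protein gene Yp3 of -0.59, while trp, trpl and moody stood between -0.05 and 0.02 and nSyb at 0.20. The fat body gene fit was at -0.09. These 8 are the markers of 26 that were measured on 3 or 4 arrays at that time point, and their part in the ribosomal protein values was not tested. On the 2nd day fit was at -1.25 and Yp3 at -0.68, while Lsp2, also a fat body marker, was at 0.08 on 3 arrays.

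The 2nd day gave a different picture, in which the sign of the ribosomal proteins followed the dye. Their array medians were 0.20 and 0.21 in replicates 1 and 2, with PTZ in Cy5, and -0.14 and -0.22 in replicates 3 and 4, with PTZ in Cy3. Of 14 tested ribosomal proteins, 11 had a mean above 0 with PTZ in Cy5 and below 0 with PTZ in Cy3, beside 31.9% of all features, and 1 had the reverse, beside 31.4%. Translation factors were divided, with 5 of 13 following the first pattern and 6 the reverse. Over both orientations the ribosomal proteins had a median of 0.02, and 6 of 14 were below 0. The family median was 0.01 with 13 of 27 members below 0, beside 47.8% of all features.

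RpS28b, a small subunit protein, showed the widest gap between orientations among the ribosomal proteins on the 2nd day, with values of 0.46, 0.61, -0.34 and -0.55. The Cy5 arrays lay 0.98 above the Cy3 arrays, and the dye term of limma called it at an adjusted p = 0.175, as it did 3.67% of all features. RpL15 of the large subunit was called likewise, at 0.32, 0.39, -0.17 and -0.40, with a limma adjusted p = 0.188 for the dye. In all, the dye term called 4 of 27 members. The remaining calls went the other way, with a Cy5 minus Cy3 difference of -1.08 in eIF5B and of -1.01 in eIF2Balpha. RpLP0 measured 0.20, 0.60, -0.17 and -0.51, and RpL3 measured 0.57, 0.14, -0.42 and -0.39. In RpS28b, RpL15, RpLP0 and RpL3 the orientations did not overlap, whereas the mean over 4 arrays lay between -0.03 and 0.04. The share of all features with orientations apart was not counted, so this trait is not shown to be particular to these genes. By another condition, 31.9% of all features had a Cy5 mean above 0 and a Cy3 mean below 0, and 31.4% the reverse. The part of labelling, spots and RNA in this pattern was not tested.

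RpL23 ran the other way on the 2nd day, at 0.00, -0.13, 0.30 and 0.08. RpL29 was the only member below 0 on all 4 arrays, from -0.08 to -0.02, beside 7.24% of all features. RpS7 and RpL27 had the smallest p among ribosomal proteins and were above 0 in the mean, at 0.19 and 0.11, with a limma adjusted p = 1 for both. RpL39 and RpS15Ab, next in order, had means of -0.10 and -0.07.

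Of the translation factors on the 2nd day, eIF5B had the lowest mean at -0.44 and eIF2Balpha the highest at 0.31. The former was at -0.81 and -1.16 with PTZ in Cy5 and at 0.25 and -0.06 with PTZ in Cy3. The latter rested on 1 array, being -0.01 and -0.05 in replicates 1 and 2 and 0.98 in replicate 4. Without that array its mean was -0.03. eIF2Bdelta was the only member above 0 on every array, between 0.02 and 0.39, beside 6.5% of all features. Its mean was 0.19 and its limma adjusted p = 1. eIF4A ran from -0.40 to 0.78 with its orientations apart, and eEF1delta had a mean of -0.13, below 0 on 3 of 4 arrays. eIF4G1 was at -0.05 and eIF4E3 at 0.00, while eIF2beta was at -0.01.

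At 12 hrs the array medians of the ribosomal proteins also followed the dye. A split by dye was not particular to them, and the dye term called a smaller share of them than of all features. Array medians of the ribosomal proteins were 0.15, 0.10, -0.14 and -0.14 in replicates 1 to 4. Of 16 tested ribosomal proteins 8 were above 0 with PTZ in Cy5 and below 0 with PTZ in Cy3, beside 34.8% of all features, and 1 had the reverse, beside 35.6%. The dye term of limma called 27.9% of all features at this time point, 6 of 30 members and 2 of 16 ribosomal proteins. These were RpS19b and RpS28b among the ribosomal proteins and eIF2Bbeta, eIF2Bgamma, eIF4B and eIF5B among the factors. Over both orientations 9 of 16 ribosomal proteins were below 0, with a median of -0.04, and 20 of 30 members, beside 49.3% of all features.

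RpS19b had the lowest mean of the family at 12 hrs, -0.70 on 3 arrays. Replicate 4 stood at -1.78 while replicates 1 and 2 gave 0.03 and -0.34, with a mean of -0.15 for these, and its spots may bind transcripts of the paralogue RpS19a. RpLP0 was at -0.13, 0.06, -0.20 and -0.19, below 0 on 3 of 4 arrays with a mean of -0.11. RpL17 and RpS12 had means of 0.19 and 0.15. Replicate 1 was at 0.46 and 0.47 and replicate 2 at 0.29 and 0.26, in that order, while the Cy3 means were 0.00 and -0.06. RpL34a, RpS15Ab and RpS28b, each a member of a paralogue pair, had means of -0.11, -0.08 and 0.06.

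Among translation factors 11 of 14 were below 0 at 12 hrs, with a median of -0.11. The 2 members below 0 on every array that measured them, beside 6.48% of all features, were eIF6 and eIF4G1. eIF6, which keeps free large subunits from joining small ones, measured -0.21, -0.49 and -0.28 on 3 arrays, with a mean of -0.33 (limma SE 0.124, n = 3). Its unadjusted limma p was 0.0433. eIF4G1 was at -0.54, -0.39, -0.07 and -0.19, with a mean of -0.30 (limma SE 0.115, n = 4) and the Cy5 arrays below the Cy3 arrays. Its unadjusted limma p was 0.0398, and for both genes the limma adjusted p was 1.00. eIF4B was low in 1 orientation, at -0.78 and -0.55 with PTZ in Cy5 against 0.17 and -0.08 with PTZ in Cy3. eIF2Bgamma, which pairs with the catalytic subunit of eIF2B, had the highest mean at 0.34 but was at -0.11 on its only Cy3 array. eIF4A was at -0.06, eIF2beta at -0.12 and eEF1delta at -0.17.

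**Figure D4:**
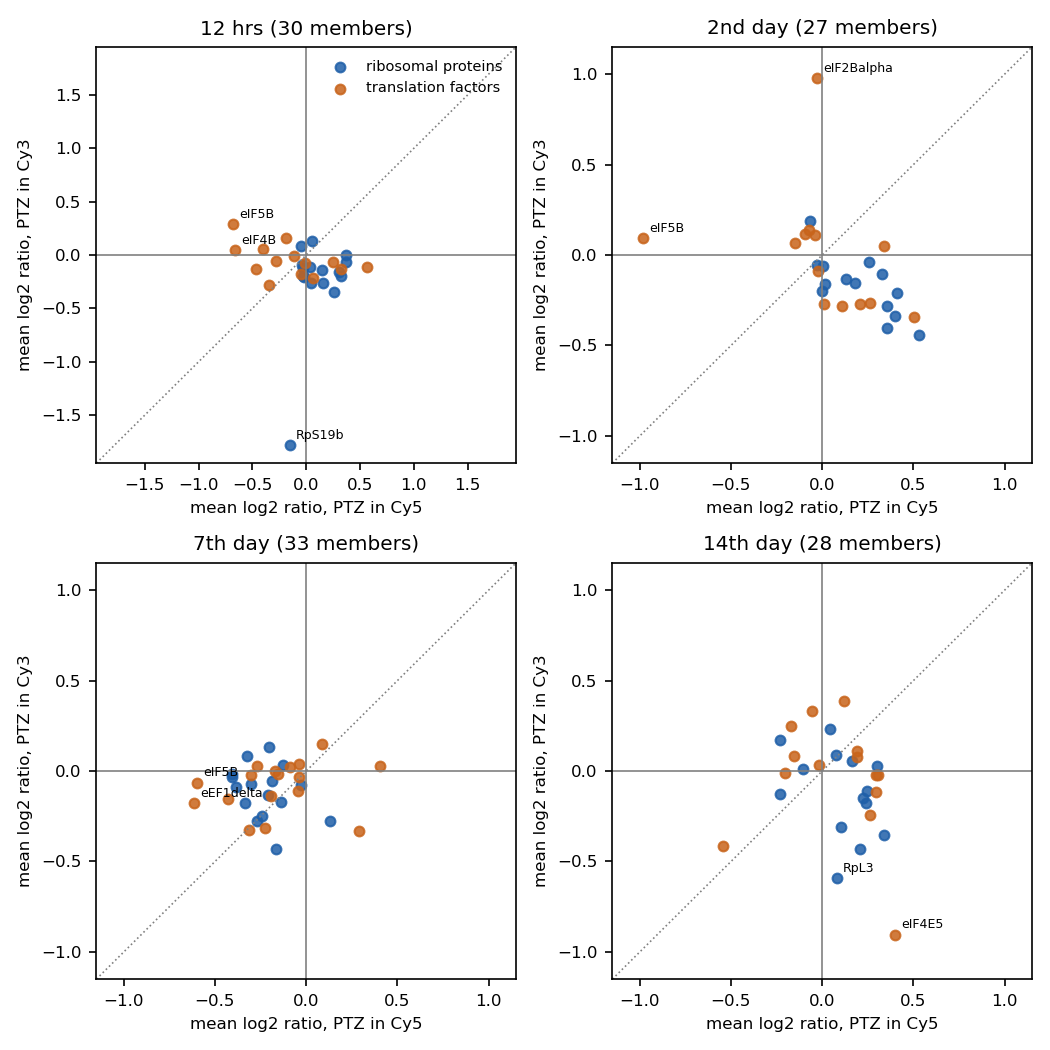
Mean log2 ratio, PTZ over NF, of each tested member over the arrays with PTZ in Cy5 (horizontal axis) and over those with PTZ in Cy3 (vertical axis), by time point. Points in the lower right quadrant are above 0 with PTZ in Cy5 and below 0 with PTZ in Cy3, which held for 11 of 14 ribosomal proteins on the 2nd day, beside 31.9% of all features, and 1 of 16 on the 7th day, beside 21.4%. Points in the lower left are below 0 in both, 23 of 33 members on the 7th day, beside 27.2% of all features.

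After withdrawal, on the 14th day, the family lay around 0. Ribosomal proteins had a median of 0.01 with 7 of 14 below 0, translation factors a median of 0.03 with 3 of 14 below 0, and all features a median of 0.00 with 49.6% below 0. The arrays differed, with family medians of 0.14, 0.11, 0.20 and -0.24 in replicates 1 to 4. Replicate 4 had 21 of its 25 measured members below 0, and without it the family median was 0.13 with 8 of 28 members below 0. As deposited, before centring, the medians of the family and of all features were 0.26 and 0.25.

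eIF6 was the lowest member on the 14th day, at -0.30, -0.78, -0.73 and -0.10, below 0 on 4 of 4 arrays. Its mean was -0.48 (limma SE 0.179, n = 4), a fold of 0.717. The unadjusted limma p was 0.0230 and the limma adjusted p was 1.00. Of all features 6.9% were below 0 on every array at this time point, and 5.72% were above 0 on every array, as was eIF4B on its 3. eIF6 was also below 0 on all 4 arrays of the 7th day, between -0.29 and -0.06, and on the 3 arrays of 12 hrs given above, and it had no value on the 2nd day. RpL3 was the lowest ribosomal protein at -0.26, with -0.55 and -0.63 where PTZ was in Cy3 and 0.02 and 0.13 where it was in Cy5. RpL32 was at -0.18, below 0 on 3 of 4 arrays. RpL15 and RpL39 stood at 0.16 and 0.14 and eIF4B, on 3 arrays, at 0.21. RpLP0 was at 0.16, 0.25, -0.18 and -0.68, with a mean of -0.11, so that the 4 arrays no longer lay on 1 side of 0. eIF4A, eEF1alpha2 and eIF4G1 had means of 0.02, 0.14 and 0.15, and RpS5b of 0.03.

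The time points were then set against each other with all 8 arrays of a pair in the fit. By limma, 0 members were called in any of the 4 differences, where the share of all features called was 0.0225% for 2nd day minus 12 hrs, 0.135% for 7th day minus 12 hrs, 0.0238% for 7th day minus 2nd day and 0% for 14th day minus 7th day. On the 7th day against the 2nd day all 13 ribosomal proteins tested in both were lower, beside 58.7% of all features, with a median difference of -0.19, and 23 of 26 members were lower with a median of -0.14 beside -0.04 for all features. The difference lay in the Cy5 arrays, where the family median was -0.32, and in the Cy3 arrays it was 0.02. RpS7 had the lowest difference at -0.44 (limma SE 0.177, adjusted p = 0.734), from a mean of 0.19 on the earlier day to one of -0.25. It was the only member at an unadjusted p under 0.05, where 3.43% of all features were lower. RpL17, RpL27, RpLP0 and RpL23 followed among the ribosomal proteins with differences of -0.32, -0.32, -0.30 and -0.30, and eIF4A, eIF2Balpha, eIF2Bdelta and eEF1delta were the lowest of the factors with -0.40, -0.34, -0.28 and -0.27. Of these 9 genes RpS7, RpL23, eIF2Balpha and eIF2Bdelta were lower in both orientations. The difference was -0.66 in the Cy5 and -0.07 in the Cy3 arrays for RpS7, -0.32 and -0.28 for RpL23, -0.01 and -1.01 for eIF2Balpha, and -0.49 and -0.07 for eIF2Bdelta.

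On the 7th day against 12 hrs, 12 of 14 ribosomal proteins were lower, beside 58.9% of all features, with a median difference of -0.14 where all features had -0.06. Factors were divided, with 6 of 13 lower. The family median was -0.24 within the Cy5 arrays and 0.01 within the Cy3 arrays. RpL17 had the lowest difference, -0.41 (limma SE 0.178, adjusted p = 0.763), and alone was at an unadjusted p under 0.05, where 3.34% of all features were lower. RpL23 was next at -0.39. In eEF5 the 4 arrays of the 7th day were all below the 4 arrays of 12 hrs, which held for 4.24% of all features, with a difference of -0.23 that was alike in the Cy5 and Cy3 arrays at -0.21 and -0.24. eIF4A was lower in both orientations too, with differences of -0.20 and -0.32. Because the 2 comparisons share the 7th day arrays they are not independent of each other. Between the 2nd day and 12 hrs the family median difference was 0.03, with 9 of 26 members lower, beside 48.6% of all features, and the orientations had medians of 0.09 and -0.05.

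The 14th day, after withdrawal, was last set against the 7th. Of 28 members tested at both times 7 were lower, beside 48.4% of all features, and 21 were higher, with a median difference of 0.17 beside 0.01 over all features, and 11 of 14 ribosomal proteins were higher with a median of 0.22. The family median was 0.32 within the Cy5 arrays and 0.09 within the Cy3 arrays, and thus above 0 in both. eEF1delta had the largest difference at 0.53 (limma SE 0.203, adjusted p = 0.656), from a mean of -0.40 to one of 0.13, and it was higher in both orientations, by 0.81 and 0.25. It alone was at an unadjusted p under 0.05, where 3.32% of all features were higher. Without 14th day replicate 4 this count was 8 of the same 28 members, beside 5.56% of all features, and without 14th day replicates 2 or 3 or 7th day replicates 1 or 2 it was 0. Without 7th day replicate 4, the array whose treatment text describes withdrawal, the count was 1, beside 3.37%. RpL27, RpL15 and RpS5b had differences of 0.32, 0.32 and 0.33 and eIF4A of 0.34, none past the threshold. eIF6 had the lowest difference at -0.31.

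Other genes of translation, in lists of related complexes, were read beside the family on the 7th day. Of the eIF3 subunits, which hold the small subunit during initiation, 7 of 8 tested were below 0 with a median of -0.23. Of these eIF3b was at -0.59 on 3 arrays and eIF3i at -0.36, the latter below 0 on 4 of 4 arrays (limma adjusted p = 0.596 for both). Translation regulators and release factors had 6 of 7 below 0 with a median of -0.26. Among them the poly(A)-binding protein pAbp was at -0.45, but below 0 on only 2 of 4 arrays (SD 0.608). Its inhibitor Paip2 was at -0.28, below 0 on 4 of 4 arrays. Mitochondrial ribosomal proteins had 18 of 31 below 0 with a median of -0.04, and ribosome biogenesis factors 8 of 13 with a median of -0.02, both close to the 49.9% and 0.00 of all features. In the list for handling of nascent chains 4 of 7 were below 0, with Nacalpha at -0.46. Only 2 aminoacyl-tRNA synthetases were measured, SerRS at 0.36 and AlaRS at -0.01. By limma 0 genes of these lists were called on the 7th day.

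At the earlier times the lists differed among themselves. In the list for handling of nascent chains 3 of 4 were below 0 at 12 hrs with a median of -0.20, and 4 of 5 on the 2nd day with a median of -0.02, beside a median of -0.14 on the 7th day. Both synthetases tested at 12 hrs were below 0, with a median of -0.18. The eIF3 subunits had medians of 0.09 at 12 hrs and 0.01 on the 2nd day, and the mitochondrial ribosomal proteins 0.01 and 0.00. Sec61beta and Sec61gamma, small subunits of the channel that takes nascent chains into the endoplasmic reticulum, were below 0 on 4 of 4 arrays at both times. Sec61gamma had means of -0.40 at 12 hrs and -0.35 on the 2nd day, and Sec61beta of -0.31 and -0.30, with limma adjusted p-values from 0.495 to 1.00. On the 2nd day the release factor eRF3 was at -0.31, below 0 on 4 of 4 arrays (limma adjusted p = 0.563).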

How the data were processed

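The authors scanned the 2-colour cDNA arrays, quantified the spots in GenePix Pro, normalized the ratios and removed weak, saturated, flagged or uneven spots in Acuity; the deposited values are log2 ratios of Cy5 over Cy3. Here 53 values at the ceiling of 16.61 were set missing, the spots of a gene (neighbouring spots for unnamed rows) were averaged to 13059 features, each array was centred on its feature median and dye swaps were multiplied by -1. The number of arrays limits the precision. The mean at each time point was tested against 0, and differences between time points in 8 arrays, with limma 3.58.1 (R 4.3.3) for features on at least 3 of 4 arrays. P-values are limma's, two-sided, adjusted by Benjamini-Hochberg over all features; the threshold of 0.19 is the highest false discovery rate the study used. The procedure was run on simulated data with independent noise, no dye effect and shifts larger than the mean of any tested member. That run does not cover shifts of the size seen in the members. Named in the text are, for each comparison and class, up to 4 members with the smallest p, the lowest and the highest mean, and the measured stalk proteins, paralogue pairs, eEF1, eIF2 and eIF4F genes; further members were chosen after their values were seen. The members and lists were chosen with earlier results of these data known. Dye coefficients, values within orientations and counts without single arrays were added after seeing the data.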

Additional observations from a re-analysis of the deposited data

Results flagged for a closer look

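Of 134 groups of 4 values examined, 6 held 1 value far from the other 3, and chance gives about 1 in 20. RpL15 at 12 hrs stood at 0.16 in replicate 2 and between -0.12 and -0.09 in the others. On the 7th day eIF2Bdelta stood at 0.13 in replicate 4 and between -0.17 and -0.14 in the others, and eIF4B at 0.15 in replicate 3 and between -0.20 and -0.15 in the others. On the 14th day replicate 4 was far below the rest for RpS7, at -0.55 against 0.17 to 0.27, and for eEF1alpha2, at -0.48 against 0.28 to 0.43, and pAbp stood at 0.58 in replicate 3 against -0.03 to 0.02.

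The gene with the clearest contrast between time points was mRpS34, of the mitochondrial small subunit, which is not a member of the family. It was above 0 on 4 of 4 arrays at 12 hrs with a mean of 1.06, and below 0 on 4 of 4 arrays on the 2nd and the 7th day with means of -0.65 and -0.90. Its difference was -1.71 from 12 hrs to the 2nd day (limma adjusted p = 0.142) and -1.96 from 12 hrs to the 7th day (limma adjusted p = 0.0412), while 1 and 6 features in all were called in these comparisons. The list of mitochondrial ribosomal proteins as a whole stood at medians of 0.01, 0.00 and -0.04 at these times.

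In 4 further genes every array of 1 time point lay above 0 and every array of another below it, while limma did not call the difference. These came from 199 differences examined, over the members and the listed genes with the smallest p. The share of all features with such opposite signs was not counted. Groups without overlap, a looser condition, held for 3.38% (lower) and 1.91% (higher) of all features for 7th day minus 2nd day. For 14th day minus 7th day these shares were 2.98% and 2.99%. For SerRS the difference was 0.56 from 12 hrs to the 7th day (limma adjusted p = 0.763) and -0.99 from there to the 14th (limma adjusted p = 0.656). For Paip2 it was -0.49 between the 2nd and the 7th day (limma adjusted p = 0.734), and for eIF3g1 it was 0.48 between the 7th and the 14th (limma adjusted p = 0.656). For mRpS30 it was 0.63 between the 2nd and the 7th day (limma adjusted p = 0.734) and -0.41 between the 7th and the 14th (limma adjusted p = 0.689).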

How the results depend on the processing

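The alternatives were centring on the mean, a dye term, trended and robust variances, 4 or 2 of 4 arrays and separate spots. Also tried were 1 fit of 16 arrays, a threshold of 0.05, a replicate block, each array left out and, for single time points, SAM. Under these 0 members were called in any comparison. Few features were called at all, from 0 to 3 at 12 hrs and from 0 to 19 on the 2nd day. Values as deposited moved the family median to -0.0375 (7th day), 0.258 (14th day) and -0.0193 (7th day minus 12 hrs). Deposited array medians, as Cy5 over Cy3, were 0.73, 1.39, 0.84 and 0.75 in replicates 1 to 4 of the 7th day. For the 14th day they were 1.56, 0.92, 0.01 and 1.52. Without centring, these offsets take opposite signs in the orientations once dye swaps are turned. Leaving out 1 array gave 7th day family medians between -0.20 and -0.12, with members kept on at least 2 of the others or as tested with all arrays. For the 14th day, with members kept on at least 2 of the others, they lay between -0.02 and 0.09. Over the members tested with all arrays, the 14th day median was 0.13 without replicate 4, as given above. As deposited RpL28 turned to 0.45 on the 7th day and to 0.46 for 7th day minus 2nd day, and RpL32 to 0.0583 on the 14th. Without 1 array RpL28 lay between -0.0778 and 0.13 on the 7th day, and for 7th day minus 2nd day between -0.0764 and 0.131, above 0 without 7th day replicate 4 and, for the difference, without 2nd day replicates 1 or 2. eIF2Balpha on the 2nd day ranged from -0.0275, without replicate 4, to 0.486, and eIF5B for 2nd day minus 12 hrs from -0.528 to 0.0384, the latter without 12 hrs replicate 4. The cause of these turns was not tested.

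Members lower at an unadjusted p under 0.05 on the 7th day numbered 4 of 33 in the analysis reported, beside 3.43% of all features. They numbered 0 as deposited or without replicate 1, 1 without replicate 2 or with trended and robust variances, and 2 with 1 fit of 16 arrays, with the replicate block or with members on 2 of 4 arrays, beside 0.0412% (as deposited) to 4.46% (1 fit of 16 arrays) of all features. With spots kept separate, 8 of 78 spots of members were lower, beside 3.07% of all spots. Replicate numbers do not pair samples here: deviations of same-numbered arrays correlated between -0.11 and 0.35 over the 4 differences, and the numbers coincide with the dye orientation. With the replicate number as a block the family medians were -0.0688, 0.0108, -0.152 and 0.0334 at the 4 time points in order, and 0.0281, -0.108, -0.132 and 0.165 for the differences in the order 2nd day minus 12 hrs, 7th day minus 12 hrs, 7th day minus 2nd day and 14th day minus 7th day.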
